A study of Mus musculus with 2 samples.

Results

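The barcodes described here carry few UMIs (random tags that let each captured transcript be counted once) and a large share of transcripts from the mitochondrial genome. They come from 2 droplet single-cell RNA libraries of C57BL/6 mouse cells, 1 library of day 4 embryoid bodies (EB) and 1 of yolk sac (YS). They were selected on their UMI total and mitochondrial share. In each library on its own, a barcode was taken when it held at least 1000 UMIs, fewer than 6172 UMIs in EB or 6537 in YS, and more than 20% of its UMIs on the 13 mitochondrial (mt-) genes. The rule found 998 such barcodes among the 3611 EB barcodes with 1000 or more UMIs (27.6%), and 361 among 1317 in YS (27.4%). These 1359 of 4928 barcodes are called the low-UMI, high-mitochondrial barcodes. They were compared with the intact barcodes of the same library, which reached the UMI limit and held at most 10% mt- UMIs (1878 in EB and 775 in YS).

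EB cells were differentiated in serum from embryonic stem cells, without feeder cells, towards the mesoderm that gives blood and vessels, and were dissociated with Accutase for 5 min. Yolk sacs of equal numbers of E9.5 and E10.5 embryos were pooled and dissociated with 0.25% collagenase for 30 min. Both suspensions were frozen at -80 °C in 10% DMSO and thawed, EB cells were sorted as live, and from YS dead cells and about 70% of Ter119+ red cells were sorted out before loading at 300 cells per µL. With 1 library of each tissue there is no replicate, so the comparisons carry no test. Values carry exact 95% intervals that cover counting error only, and a gene is called higher or lower when its ratio passed 2-fold.

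A cell whose outer membrane leaks loses the RNA dissolved in its cytosol first. RNA in the nucleus, in mitochondria or held on the endoplasmic reticulum (ER), where secreted and membrane proteins are made, is better protected. A signal peptide, a short hydrophobic stretch near the start of a protein, directs a translating ribosome to the ER. Ribosomal proteins and translation factors carry none and are made on free ribosomes. For this reason a high mitochondrial share with a low total is widely read as a sign of damage, and such barcodes are usually dropped.

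The coding starts of 3 messages of secreted or membrane proteins and of 3 cytosolic ones are shown because the groups differed along this line, mainly in EB. Their transcripts also differ in length, with 5379 bases for Podxl, 6497 for Plxnb2 and 3672 for Hspa5. Rplp0 has 1358, Rps3 1908 and Eif3h 1295, so in these genes length and a hydrophobic start cannot be told apart. Podxl (podocalyxin, a surface sialomucin) and Plxnb2 (a plexin receptor) were among the messages with the highest ratio in both libraries, and Hspa5 (BiP) is the main chaperone of the ER. Rplp0 and Rps3 (ribosomal proteins) and Eif3h (a subunit of an initiation factor) were among those with the lowest. Each line gives the first 105 coding bases from the GENCODE M21 transcript (GRCm38), 5′ to 3′, and the capitals mark the 12 codons, among the first 35, whose amino acids have the highest mean hydropathy (Kyte-Doolittle scale).
Podxl: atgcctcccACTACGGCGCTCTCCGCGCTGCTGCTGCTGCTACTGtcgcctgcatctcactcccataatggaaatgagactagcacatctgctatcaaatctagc
Plxnb2: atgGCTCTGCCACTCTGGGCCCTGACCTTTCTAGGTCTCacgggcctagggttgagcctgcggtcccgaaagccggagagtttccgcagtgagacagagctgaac
Hspa5: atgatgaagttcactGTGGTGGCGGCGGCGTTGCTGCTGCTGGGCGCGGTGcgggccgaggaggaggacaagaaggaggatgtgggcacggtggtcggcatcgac
Rplp0: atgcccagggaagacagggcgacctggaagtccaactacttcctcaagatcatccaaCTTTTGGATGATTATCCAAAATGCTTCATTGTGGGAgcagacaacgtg
Rps3: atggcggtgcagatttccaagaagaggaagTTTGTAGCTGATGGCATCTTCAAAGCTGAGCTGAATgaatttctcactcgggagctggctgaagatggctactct
Eif3h: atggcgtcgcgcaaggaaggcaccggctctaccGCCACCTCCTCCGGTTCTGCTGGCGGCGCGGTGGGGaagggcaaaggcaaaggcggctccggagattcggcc
The capitals of Podxl (chr6:31519488-31563981, minus strand) have a mean hydropathy of 2.33, those of Plxnb2 (chr15:89155549-89180788, minus strand) 1.82 and those of Hspa5 (chr2:34771970-34777547, plus strand) 2.88. In both Podxl and Hspa5 they hold a run of leucine codons. The highest windows of Rplp0 (chr5:115559467-115563727, plus strand), Rps3 (chr7:99477896-99483738, minus strand) and Eif3h (chr15:51786558-51865523, minus strand) reached 0.617, 0.575 and 0.408. Plxnb2 thus lies under the threshold of 2 used below for a hydrophobic start, although it too is a membrane protein. It has a hydrophobic stretch farther in.

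What set these barcodes apart was a low number of nuclear-gene transcripts beside as many mitochondrial transcripts as in intact barcodes, or more. A low-UMI, high-mitochondrial barcode held a mean of 1642 UMIs of nuclear genes in EB, against 26205 in an intact barcode (6.26%), and 767 against 30580 in YS (2.51%). Mitochondrial UMIs per barcode came to a mean of 815 against 787 in EB (104% of intact) and 1052 against 625 in YS (168%). The mitochondrial share chose the barcodes, so these values describe the rule and test nothing. The UMI total of the chosen barcodes had a median of 2218 in EB (1002 to 6140) and 1567 in YS (1000 to 6054). Their mitochondrial share had a median of 30.5% in EB (20.04% to 86.1%) and 65.6% in YS (20.015% to 95.2%), against 2.85% and 1.87% in intact barcodes. The YS barcodes thus held fewer nuclear-gene UMIs, with a median of 515 against 1549.5 in EB.

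**Figure D1:**
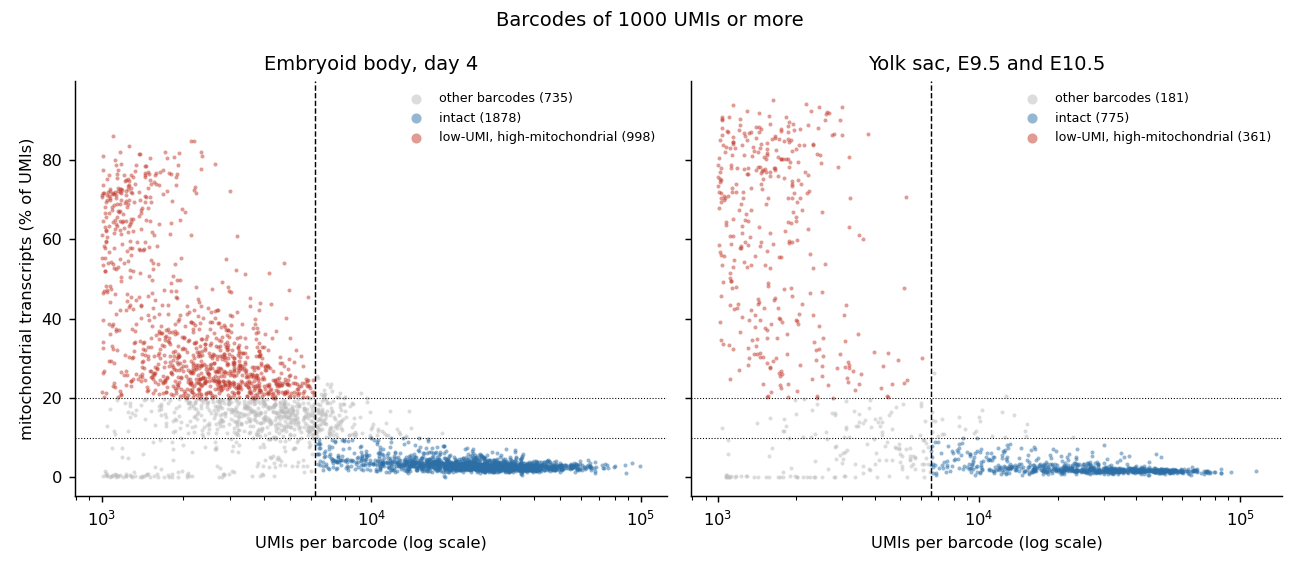
Each point is a barcode of 1000 or more UMIs, with its UMI total on the x axis (log scale) and its percentage of mitochondrial UMIs on the y axis, for EB and YS. The dashed line is the UMI limit and the dotted lines are 10% and 20%; the chosen barcodes (998 in EB, 361 in YS) fill the upper left, and few barcodes lie above 20% at or over the limit (18 in EB, 2 in YS).

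The shortfall against intact barcodes was unequal among genes. Of the 12571 EB genes measured (30 or more UMIs in both groups together), 4 had more UMIs per chosen barcode than per intact barcode, and 2 of 11722 did in YS. Malat1 UMIs per chosen barcode were 59.2% of those per intact barcode in EB and 19.3% in YS, while those of Rplp0 were 3.07% and 1.26%. Summed over the lists of gene functions, nuclear-retained lncRNAs were at 55.2% in EB and 20.8% in YS, and cytoplasmic ribosomal protein genes at 3.34% and 1.75%. Extracellular matrix genes (32.5% in EB and 4.89% in YS), chromatin regulators (17.1% and 8.79%) and ER chaperones (19.1% and 2.81%) lay between them. No function list had more nuclear-gene UMIs per chosen barcode than per intact barcode in either library. The genes that did, Col8a2, 4930518I15Rik, Gm26591 and Gm4631 in EB and Pga5 and Yam1 in YS, were picked out after their values were seen. Col8a2 (a collagen chain) had 8.55 CPM in the chosen EB barcodes against 0.406 in intact ones, a ratio of 21 [9.83 to 43.8], and 0 UMIs in the chosen YS barcodes.

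All further levels are CPM (UMIs scaled to the same total of nuclear-gene UMIs), so a ratio gives the difference in makeup among nuclear-gene transcripts. On this scale the median gene had a log2 ratio (chosen over intact) of 0.81 in EB (quartiles 0.05 and 1.56) and 0.58 in YS (-0.21 and 1.52). In EB 5340 genes (42.5%) were over 2-fold higher and 329 (2.62%) over 2-fold lower. In YS 4123 (35.2%) were higher and 652 (5.56%) lower. The abundant ribosomal protein messages made up 17.7% of nuclear-gene UMIs against 33.3% in EB, and 18.8% against 26.9% in YS, and with them left out of the total the median log2 ratio was 0.52 in EB and 0.44 in YS. Centred on the median gene, the split became 2215 higher (17.6%) and 2241 lower (17.8%) in EB, and 2577 (22%) and 2035 (17.4%) in YS. The chosen barcodes held 1638277 nuclear-gene UMIs in EB and 276863 in YS, against 49213367 and 23699347 in intact barcodes, and the part of depth in these counts was not tested. Among genes expected to give at least 10 UMIs in the chosen barcodes, 3012 of 8210 were higher (36.7%) and 176 lower (2.14%) in EB. The same filter gave 377 of 3363 higher (11.2%) and 280 lower (8.33%) in YS, with median log2 ratios of 0.64 in EB and -0.14 in YS. At 0 UMIs in the chosen barcodes stood 178 of the measured genes in EB and 903 in YS, of which 163 and 870 were too low in intact barcodes to give a direction. Genes without a direction count in the percentages but are left out of the medians, which cover 12408 genes in EB and 10852 in YS. All of them had 0 UMIs in the chosen barcodes, so the medians leave out genes of that side only.

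The libraries shared part of this pattern. Across the 10108 genes with a direction in both, the log2 ratios of EB and YS correlated with r = 0.534 (Pearson) and rho = 0.564 (Spearman), and 7460 genes (73.8%) had the same sign. This is a description across genes, which are not independent replicates. The median of these genes was above 0 in both libraries (0.78 in EB and 0.54 in YS), which alone raises the share of equal signs. Of 10810 genes measured in both libraries, 2619 were higher in both (24.2%), which is 58.2% of those higher in EB and 69.9% of those higher in YS. Lower in both were 27 (0.25%), or 10.4% of those lower in EB and 4.51% of those lower in YS, while 69 were higher in EB and lower in YS, and 37 the reverse. With the filter of 10 expected UMIs, 223 of 3243 genes were higher in both (6.88%) and 13 lower (0.401%). There 66.9% had the same sign and r was 0.540. Averaged over barcodes, r was 0.292. Centred on the median gene, 976 were higher in both (9.03%) and 771 lower (7.13%). The groups share no barcode sequence between the libraries beyond 1 chosen EB barcode also intact in YS, 1 intact in EB also chosen in YS, and 2 intact in both.

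**Figure D2:**
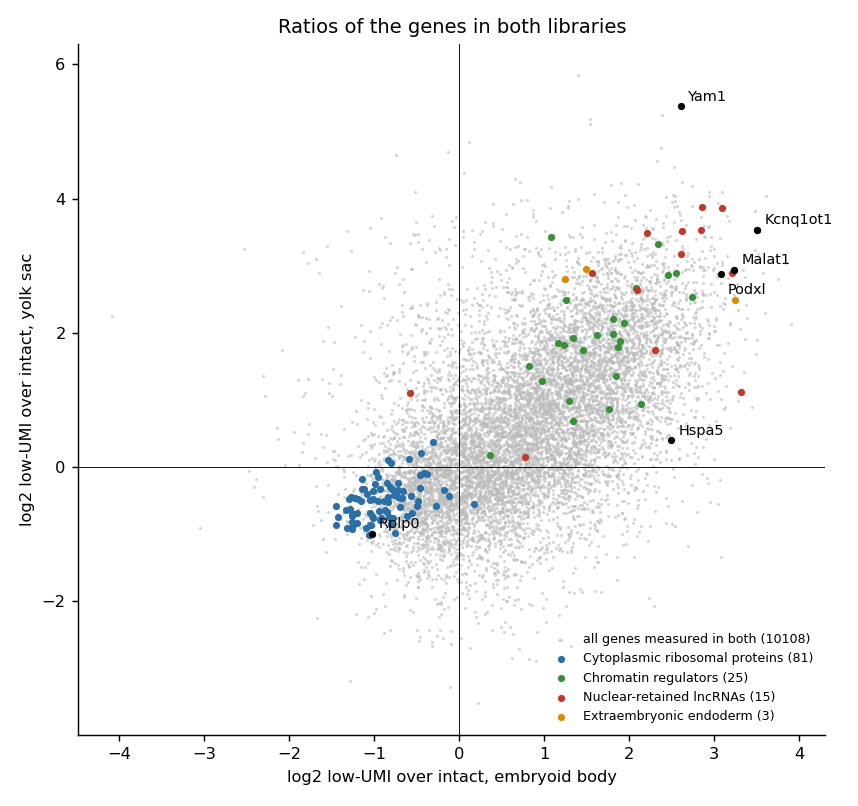
Each grey point is a gene with a direction in both libraries (10108), with its log2 ratio of CPM (low-UMI, high-mitochondrial over intact) in EB on the x axis and in YS on the y axis, and 4 gene lists are coloured. Nuclear-retained lncRNAs lie at the upper right, with list medians of 2.73 and 2.94, and cytoplasmic ribosomal proteins at the lower left, with -0.93 and -0.50.

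RNAs that stay in the nucleus had the highest ratios of the function lists. Of the 17 nuclear-retained lncRNAs listed, 16 were measured in EB and 14 of them were higher, and 14 of 15 were higher in YS, with none lower (list medians 2.73 and 2.94, against 0.81 and 0.58 for all genes). Malat1 (chr19:5795690-5802672, minus strand), a lncRNA of nuclear speckles, stood at 21861 CPM [21635 to 22088] against 2315 in EB and at 20534 CPM [20003 to 21074] against 2675 in YS. These are ratios of 9.44 [9.33 to 9.56] and 7.68 [7.47 to 7.89], and the 2 tissues differed far less from each other than the groups did within either. Kcnq1ot1 (chr7:143203458-143296549, minus strand), an imprinted RNA that silences its neighbours from the chromatin, had 572 CPM against 50.4 in EB and 773 against 66.6 in YS. Its ratios were 11.4 [10.53 to 12.3] and 11.6 [10.0 to 13.4]. It lies antisense within Kcnq1, and whether the counting used strand is not given in the sources used here.

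The imprinted cluster of chromosome 12 followed. Meg3, its maternally expressed lncRNA, had 2759 CPM against 449 in EB (6.14-fold) and 5566 against 486 in YS (11.5-fold). Rian, a host of small nucleolar RNAs downstream, had 334 against 54.5 CPM (6.12-fold) and 567 against 62.8 (9.03-fold). Mirg, a host of microRNAs, had 102 against 12 CPM (8.52-fold) and 141 against 9.66 (14.6-fold). All 3 were higher in both libraries, by more in YS. Neat1, the scaffold of paraspeckles, had 33.0 against 4.53 CPM in EB and 65.0 against 4.43 in YS, on 54 and 18 UMIs in the chosen barcodes. Xist, the RNA that coats the inactive X chromosome, was 7.39-fold higher in YS (1510 against 204 CPM) and 9.24-fold in EB, there at only 9.77 against 1.06 CPM. Among the host genes of small nucleolar RNAs fewer were higher: 7 of 15 were higher in EB and 0 of 15 in YS (medians 0.88 and -0.06).

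Messages of chromatin regulators, mostly large nuclear proteins, were higher as well. In EB 22 of 25 were higher and in YS 20 of 25, with none lower and medians of 1.76 and 1.87. Of all genes 42.5% were higher in EB and 35.2% in YS. The class of longest transcripts, described below, had medians only somewhat lower than this list, and the part of length in the list was not tested. Ash1l, a histone H3 lysine methyltransferase, had 111 CPM against 19 in EB (5.85-fold [4.97 to 6.87]) and 220 against 29.7 in YS (7.42-fold [5.61 to 9.64]). Kmt2d, another, had 43.3 against 8.53 CPM (5.08-fold) and 57.8 against 5.78 (10.0-fold). Smarcc1, a core subunit of the BAF remodeling complex, was near its intact level, with 146 against 114 CPM in EB and 108 against 96.0 in YS. The list thus ranged from 0.37 to 2.74 in EB and from 0.17 to 3.43 in YS on the log2 scale. Ccnt2, a cyclin of the elongation kinase P-TEFb, had 336 against 42.5 CPM (7.90-fold) and 181 against 23.5 (7.68-fold). Nfat5, a transcription factor of the osmotic response, had 148 against 20.2 CPM (7.34-fold) and 134 against 9.20 (14.5-fold).

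Splicing factors and speckle proteins split by gene. In EB 18 of 61 were higher and none lower, and in YS 13 of 60 were higher and 4 lower. Their medians of 0.77 and 0.27 were close to those of all genes, and turned to -0.04 and -0.31 once centred on the median gene. Clk1, a kinase of SR proteins whose message is partly held in the nucleus, was 4.23-fold higher in EB and 6.90-fold in YS. Pnisr, a speckle protein, was 3.73-fold and 4.58-fold higher. Sf3b6, a small subunit of the U2 particle, was at 0.674 of its intact level in EB and 0.484 in YS.

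Ribosomal protein messages had the lowest median of the function lists in EB and one of the lower medians in YS. Of 82 measured cytoplasmic ribosomal protein genes, 35 were over 2-fold lower in EB and 1 in YS, and none was higher (medians -0.93 and -0.50). Reads from their many processed pseudogenes can be split among copies, so the single genes are less certain than the sum. Rplp0 (acidic stalk protein) had 1604 CPM [1543 to 1666] against 3271 in EB and 2384 [2205 to 2573] against 4760 in YS, 0.490 [0.472 to 0.510] and 0.501 [0.463 to 0.541] of the intact level. Rps3, a protein of the small subunit at the entry of the mRNA channel, had 2534 against 5418 CPM (0.468) and 1983 against 3715 (0.534). The list's lowest members were Rps15a, at 0.367 in EB and 0.551 in YS, and Rpl10, at 0.400 and 0.531. Some members were near or above their intact level, Rpl38, a small protein of the large subunit, among them at 0.806 in EB and 1.29 in YS, and the highest log2 ratio of the list was 0.17 in EB and 0.36 in YS. The summed share was lower in both libraries, and by more in EB, at 17.7% against 33.3%.

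Several other function lists had medians below 0 in both libraries, although few of their genes passed 2-fold. Translation factors had medians of -0.37 in EB and -0.55 in YS, with 3 and 4 of 30 lower and 1 and 0 higher. Eif3h had 305 CPM against 649 in EB (0.470 [0.429 to 0.513]) and 249 against 528 in YS (0.472 [0.367 to 0.597]). Btf3, part of the nascent polypeptide-associated complex, had 798 against 1644 CPM (0.485) and 719 against 1565 (0.459). The long factors Eif3a and Eif4b were instead 1.84-fold and 2.31-fold higher in EB, and 1.40-fold and 1.29-fold in YS, where centring on the median gene turned both to slightly lower. Mitochondrial ribosomal proteins (-0.35 and -0.51), nuclear-encoded OXPHOS subunits (-0.33 and -0.18), proteasome subunits (-0.18 and -0.54) and tubulins (-0.19 and -0.46) also had medians below 0. Of the 77 OXPHOS subunits, 3 were higher and 2 lower in EB, and 1 higher and 2 lower in YS. Averaged over barcodes, their YS median was 0.09.

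The actin cytoskeleton list held both ends. Tmsb4x (thymosin beta 4, which binds actin monomers) had 286 CPM against 753 in EB (0.379) and 2597 against 4305 in YS (0.603). Cfl1 (cofilin, which severs filaments) was at 0.525 and 0.619. Myh9 (heavy chain of nonmuscle myosin) was 4.46-fold higher in EB (94.6 against 21.2 CPM) and 4.87-fold in YS (202 against 41.6). Flna (filamin A, a large crosslinker) was 4.47-fold higher in EB and 1.71-fold in YS, where averaging over barcodes turned it to lower. In all, 3 of 25 were higher and 2 lower in EB, and 1 higher and 0 lower in YS. Of the usual reference genes none of 3 passed 2-fold: Actb was at 0.641 in EB and 0.937 in YS, Gapdh at 0.592 and 0.755 and Eef1a1 at 0.754 and 0.819.

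In EB the lists of the matrix, the ER and the lysosome had medians above that of all genes. In YS the matrix list did, by less, and the ER lists did not. In EB 20 of 23 measured extracellular matrix genes were higher and none lower, and in YS 17 of 31 were higher and 2 lower (medians 2.36 and 1.29). Lama5, a laminin chain of basement membranes, had 110 CPM against 15.1 in EB (7.30-fold [6.17 to 8.60]) and 32.5 against 5.44 in YS (5.97-fold [2.67 to 11.7]). Col4a1, a chain of basement membrane collagen, had 86.1 against 14.2 CPM (6.04-fold) and 209 against 54.0 (3.88-fold). Mfap2, a short message of a microfibril protein, was 1.87-fold higher in EB and at 0.134 [0.0162 to 0.486] of the intact level in YS, on 2 UMIs. Podxl had 190 CPM [169 to 212] against 22.5 in EB (8.45-fold [7.43 to 9.60]) and 209 [159 to 271] against 28.7 in YS (7.31-fold [5.49 to 9.57]). Plxnb2 had 119 against 15.3 CPM (7.80-fold) and 141 against 21.3 (6.61-fold). Both surface proteins thus stood about as far above their intact level as Malat1 did.

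ER chaperones differed between the libraries. In EB 12 of 15 were higher and none lower (median 1.47), and in YS 1 was higher and 1 lower (median 0.06). Hspa5 had 1277 CPM against 226 in EB (5.64-fold [5.38 to 5.91]) and 870 against 662 in YS (1.32-fold [1.15 to 1.49]), where centring on the median gene or averaging over barcodes turned it to lower. Hyou1, a chaperone of the same compartment, was higher in both, 8.10-fold in EB and 4.66-fold in YS. The list's summed level in intact barcodes was itself higher in YS, at 4631 CPM against 2499 in EB. Genes of the translocon and of glycosylation had medians of 0.93 and -0.17, with 11 and 4 of 22 higher. Within this list the pore subunits split: Sec61a1, the channel protein with a transcript of 3172 bases, was 3.95-fold higher in EB and 2.36-fold in YS. Sec61b, whose transcript has 424 bases and whose protein is inserted after translation, was at 0.524 and 0.672. Lysosomal genes were higher in 13 of 20 cases in EB and in 8 of 20 in YS, where 35.2% of all genes were (medians 1.25 and 0.84). The YS median turned to -0.46 when intact barcodes were reweighted to the cell makeup of the chosen ones.

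**Figure D3:**
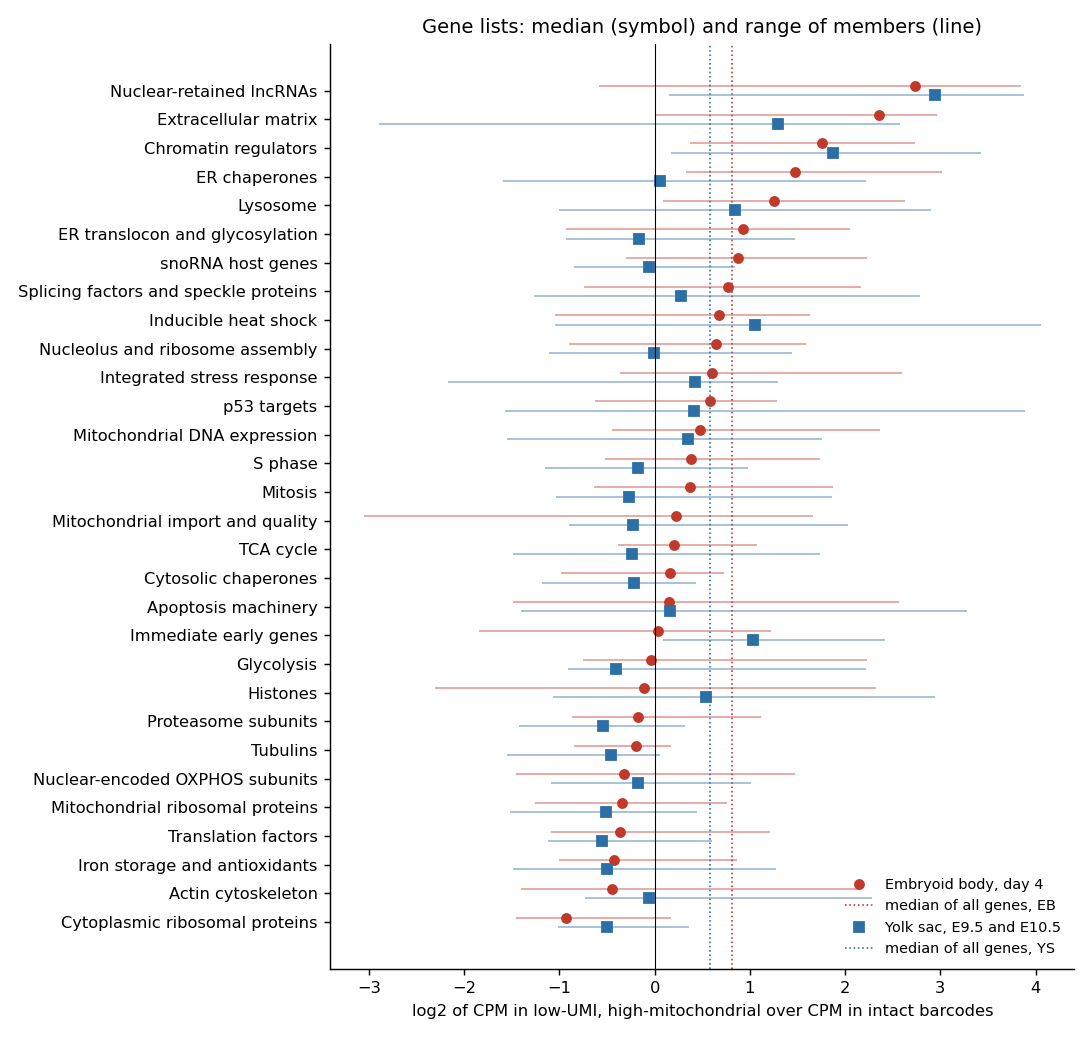
For each list of gene functions, the point is the median log2 ratio of CPM (low-UMI, high-mitochondrial over intact) of its measured genes, and the bar runs from the lowest to the highest member, in EB and YS. Nuclear-retained lncRNAs, extracellular matrix genes and chromatin regulators lie farthest to the right (EB medians 2.73, 2.36 and 1.76), and cytoplasmic ribosomal proteins farthest to the left in EB (-0.93).

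Long messages had higher ratios than short ones. Protein-coding genes were put into 5 classes of equal number by the length of the GENCODE M21 transcript with the longest coding sequence. From the shortest class to the longest, the median log2 ratios were -0.17, 0.48, 0.83, 1.18 and 1.65 in EB (11819 genes), and -0.20, 0.15, 0.48, 0.98 and 1.55 in YS (10489 genes). In the shortest class 8.67% of EB genes and 14.2% of YS genes were over 2-fold higher, and in the longest 78.1% and 68.9%. Across genes Spearman's rho with transcript length was 0.59 in EB and 0.47 in YS, with protein length 0.61 and 0.47, and with GC content -0.08 and 0.01. With at least 10 expected UMIs, the shortest and longest classes had medians of -0.27 and 1.53 in EB and -0.38 and 0.53 in YS. Barcodes from 1000 UMIs to the same limit but with at most 10% mt- had -0.01 and 0.69 in EB, and -0.04 and 0.86 in YS. Neither their depth nor their cell makeup was matched. They had a median of 2534 nuclear-gene UMIs in EB and 3052 in YS, against 1549.5 and 515 in the chosen barcodes. Empty droplets had -0.15 and -0.18 in EB, and 0.05 and -0.40 in YS, and the part of free RNA in the order by length was not tested. These 3 sets are each set against the same intact barcodes.

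A hydrophobic stretch in the protein went with a higher ratio at every transcript length in EB and by little in YS. A protein was taken to have one when 12 of its first 35 residues in a row reached a mean hydropathy of 2, or 19 residues farther in reached 1.6. In EB the 3942 genes with a stretch had a median of 1.25 and the 7877 without had 0.58. Within the 5 length classes, from short to long, genes with a stretch had 0.21, 0.87, 1.19, 1.54 and 1.91. Those without had -0.27, 0.32, 0.67, 1.00 and 1.46, so the gap stayed near the same size at each length. In YS the medians were 0.77 with a stretch and 0.46 without, and from short to long -0.07, 0.29, 0.54, 1.01 and 1.59 against -0.24, 0.11, 0.44, 0.96 and 1.52. With at least 10 expected UMIs the medians were 1.12 and 0.45 in EB, and -0.04 and -0.17 in YS. There the YS genes with a stretch were no higher in the 2 shortest classes (-0.39 and -0.43 against -0.38 and -0.36). In empty droplets over intact barcodes the order was the other way, -0.26 with a stretch against -0.14 in EB, and -0.34 against -0.02 in YS. Podxl and Hspa5, with the leucine runs printed above, and Plxnb2, by its inner stretch (2.75), belong to the class with a stretch. Rplp0, Rps3 and Eif3h belong to the class without.

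**Figure D4:**
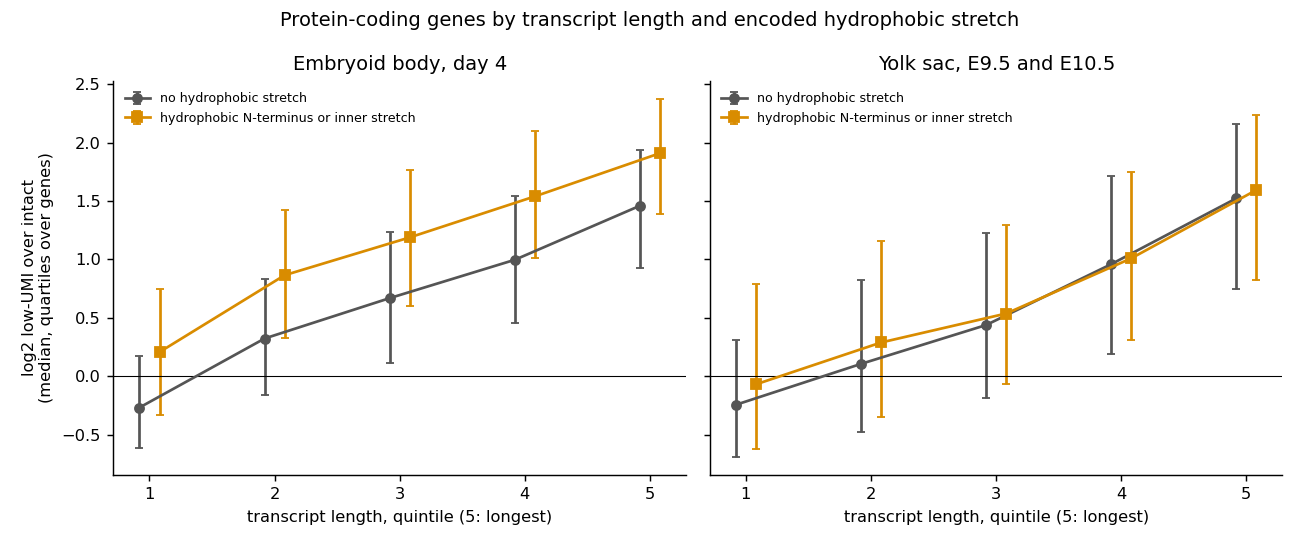
Median log2 ratio of CPM (low-UMI, high-mitochondrial over intact) with quartiles as bars, for 5 classes of transcript length (x axis, short to long), in EB and YS, apart for genes with and without a hydrophobic stretch. From the shortest class to the longest the EB medians go from -0.27 to 1.46 without a stretch and from 0.21 to 1.91 with one, and the YS medians from -0.24 to 1.52 and from -0.07 to 1.59.

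Messages of cell death and stress had no common direction. Of 22 genes of the apoptosis machinery, 8 were higher and 2 lower in EB, and 5 higher and 4 lower in YS (medians 0.15 and 0.16, below those of all genes). Targets of p53 (0.58 and 0.41) and of the integrated stress response (0.61 and 0.42) stood near the median gene, and once centred on it both were slightly below 0. Immediate early genes, which are induced within minutes of a stimulus, had 1 of 17 higher and 1 lower in EB (median 0.03). In YS 10 of 17 were higher and none lower (median 1.03, summed 3150 CPM against 1488). Klf6, an early zinc finger factor, had 130 against 55.7 CPM in EB (2.34-fold) and 368 against 99.2 in YS (3.71-fold). Inducible heat shock genes had 3 of 9 higher and 1 lower in EB, where the median of 0.68 turned to -0.13 on centring. In YS 5 of 10 were higher and 1 lower, and the list summed to 5241 CPM against 2031 and 3026 in empty droplets. Hspa1b, the inducible HSP70, picked after its values were seen, had 1098 CPM against 66.2 in YS (16.6-fold [14.6 to 18.8]) and 141 in empty droplets, and 2 UMIs in the chosen EB barcodes.

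Some rare mitochondrial transcripts differed more in share than the abundant ones, mainly in EB. In EB mt-Nd1 (complex I) made 15.1% of mt- UMIs against 12% and mt-Co1 (complex IV) 12.2% against 15.8%. In YS they made 13.4% against 12.3% and 11.2% against 13.4%. Thus both moved the same way in the 2 libraries. The rare mt-Atp8 was at 0.358 of its intact share in EB and 0.812 in YS, and mt-Nd5 at 0.524 and 1.03. Also rare, mt-Nd4l was at 0.602 and 0.865, and mt-Nd6 at 0.992 and 0.700. The other abundant species, mt-Atp6, mt-Co2, mt-Co3 and mt-Cytb, stayed between 0.853 and 1.17 of their intact share in both.

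The lower ribosomal share was already present below the limit of 20%. Among EB barcodes under the UMI limit, the ribosomal protein share was 31.9% at 0 to 5% mt-, 23.5% at 5 to 10%, 18.6% at 10 to 15% and 16.7% at 15 to 20%. Just above the rule's limit, at 20 to 25%, it was 16.4%, so the barcodes just inside and just outside were alike. Malat1 ran from 12018 CPM at 0 to 5% mt- to 19323 at 15 to 20% and 23128 at 20 to 25%. In YS the ribosomal share was 26.7% at 0 to 5%, 17.0% at 15 to 20% (21 barcodes) and 15.4% at 20 to 25% (24 barcodes), and Malat1 went from 5604 to 22714 and 24612 CPM. Barcodes at or over the UMI limit differed in the same direction: in EB the ribosomal share was 33.3% at 0 to 5%, 32.5% at 5 to 10% and 18.8% at 10 to 15%. It was 15.9% at 15 to 20% (44 barcodes) and 18.1% over 20% (18 barcodes). Malat1 was in these 5 classes 2215, 4518, 15340, 14346 and 17351 CPM. In YS the 2 barcodes over 20% at or over the limit had 14.0% and 7591 CPM. Extraembryonic endoderm markers made 5.16% of the nuclear-gene UMIs of these 2, against 0.106% at 0 to 5% mt-. In both UMI ranges and both libraries, each class over 10% mt- and up to 25% thus had a lower ribosomal share than the barcodes at 0 to 5%.

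Over 50% mt- the profile was closer to that of intact barcodes and empty droplets. The 226 EB barcodes with over 50% mt- had a ribosomal share of 31.9% and 10525 CPM of Malat1, and the 235 YS barcodes 23.2% and 8693 CPM. These barcodes held a median of 406 nuclear-gene UMIs in EB and 339 in YS. The mean empty droplet held 61.1% and 15.5% as many, with a ribosomal share of 36.2% in EB and 28.9% in YS and 3799 and 2051 CPM of Malat1. Yam1, a transcript (chr17:39846958-39848788) that the empty droplets held at 1772 CPM in EB and 6402 in YS, was at 2545 and 7009 CPM in these barcodes. Over all chosen barcodes Yam1 stood at 715 CPM against 117 in EB and 5631 against 136 in YS (41.4-fold [39.0 to 44.0]), close to its empty-droplet level in YS. Yam1 overlaps the copy of the 45S ribosomal RNA precursor that mm10 carries on this chromosome, so reads of both cannot be told apart. Subtracting the empty-droplet profile from each barcode gave list medians of -1.26 in EB and -0.57 in YS for ribosomal proteins, and of 2.95 and 3.03 for nuclear-retained lncRNAs. Keeping the chosen barcodes of 20 to 50% mt- (772 in EB, 126 in YS) gave ribosomal shares of 16.8% and 16.5% and Malat1 at 22630 and 26429 CPM. On the UMI side of the rule, EB barcodes over 20% mt- with 800 to 1000 UMIs had a ribosomal share of 30.0%, and those with 1000 to 1500 had 26.5%. In YS the same bins had 23.6% and 20.5%.

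**Figure D5:**
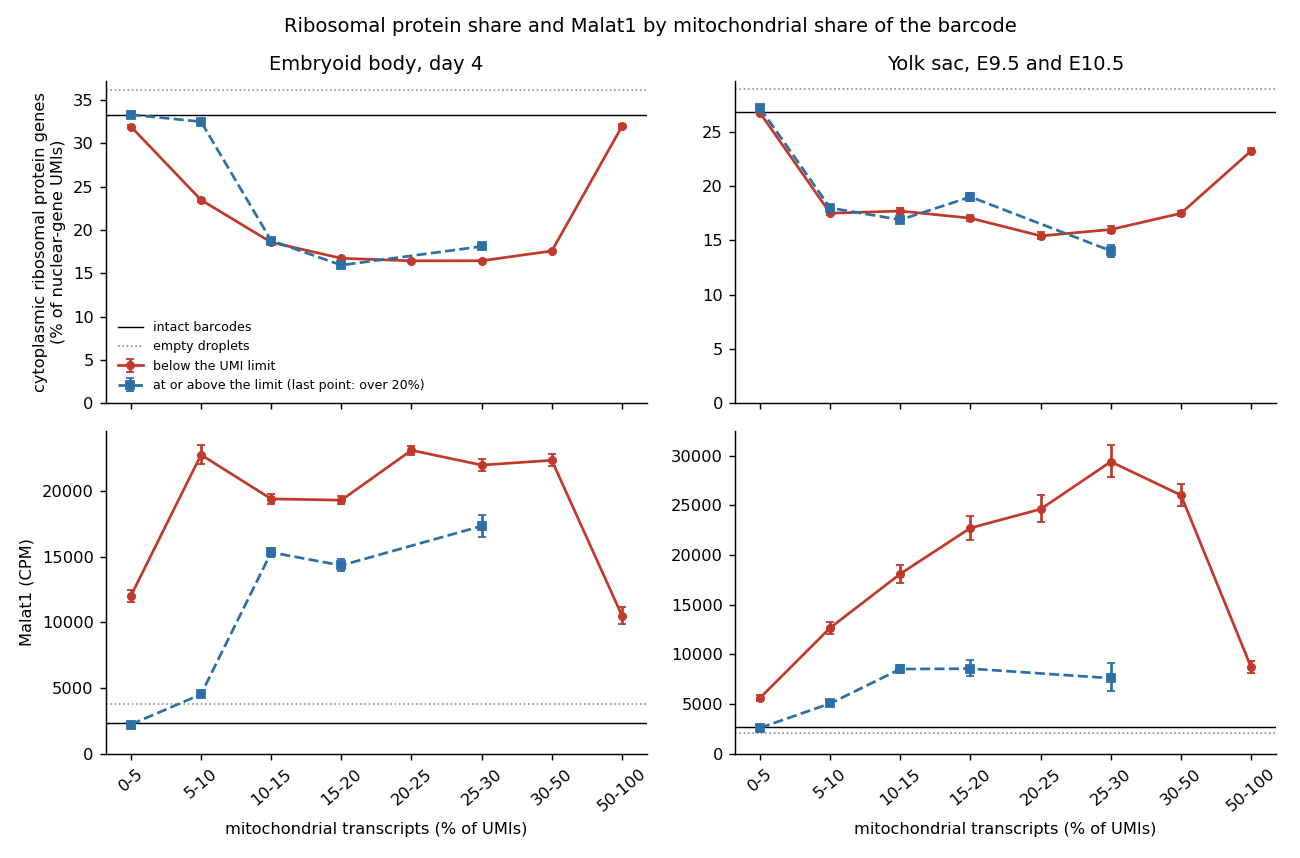
Share of ribosomal protein UMIs (percent of nuclear-gene UMIs) and Malat1 level (CPM) by class of mitochondrial share, in EB and YS, for barcodes below the UMI limit and at or above it; bars are 95% intervals of counting and the lines mark intact barcodes and empty droplets. Below the limit the EB ribosomal share goes from 31.9% at 0 to 5% mt- to 16.4% at 20 to 25% and is 31.9% again over 50%.

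Single barcodes varied around these sums. The ribosomal share per chosen barcode had a median of 17.6% in EB (10th to 90th percentile 12.9% to 35.6%), against 33.2% (28.5% to 37.7%) in intact barcodes. In YS it was 22.2% (11.9% to 29.9%) against 26.3% (20.7% to 31.2%), so the groups overlapped widely there. Malat1 made a median of 1.42% of a chosen EB barcode's nuclear-gene UMIs against 0.197%, and 0.522% against 0.244% in YS. Thinned to 500 nuclear-gene UMIs, a chosen EB barcode showed a median of 408 genes and an intact one 346 (830 chosen barcodes used and 168 shallower ones left out). Before thinning these were 1136.5 and 4389.5. In YS the thinned medians were 379 and 362 (187 used and 174 left out), and 650 and 4459 before.

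Cell makeup also differed. Intact barcodes were split into 12 k-means groups in each library, and each chosen barcode was given to the group whose profile fit its counts best. In YS 165 of 361 chosen barcodes (45.7%) went to the group led by Ttr, Apoa1, Rbp4 and Afp, transport proteins of visceral endoderm, which held 28 of 775 intact barcodes (3.61%). The group led by globins took 9.97% of chosen and 19.7% of intact barcodes, and the group led by Prtn3 and Mpo, granule enzymes of myeloid progenitors, 13.3% and 23.6%. In EB the group led by Lhx1 and Mesp1, factors of nascent mesoderm, took 24.9% of chosen and 12.5% of intact barcodes, and that led by Mest and Hand1 17.9% and 6.98%. Another Mesp1 group, with Dll3 and Snai1, took 3.61% and 15.2%. The assignment used all genes, those at a lower share in the chosen barcodes included. The sort had removed dead cells and most red cells, so these shares describe what was loaded and assigned.

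Marker lists moved with this makeup. All 12 extraembryonic endoderm markers were higher in YS, with a median of 2.85 and a sum of 14104 CPM against 1986 in intact barcodes and 1874 in empty droplets. None was at 0. Rbp4, a retinol carrier, had 2951 CPM against 422, and Amn, part of the uptake receptor of visceral endoderm, 282 against 36.6. With intact barcodes reweighted to the makeup of the chosen ones, the list's median became -0.59 and Rbp4 -0.67 on the log2 scale. The assignment behind the weights used these genes too, so this is no separate test. In EB 8 of these 12 markers were at 0 (Afp, Apoa4, Apob, Cubn, Fga, Fgb, Trf and Ttr), and the list summed to 40.3 against 9.12 CPM. Erythroid markers were lower in YS for 10 of 12 genes (median -1.73, 22560 against 75206 CPM), and 11 of 12 were at 0 in EB. Hbb-y, an embryonic globin, had 10182 CPM against 32488. With barcodes over 10% globin left out of both groups it was 4.23 higher on the log2 scale and the list's median 3.50. That filter removes barcodes by the globin genes themselves, so these values test nothing. Empty YS droplets held 15417 CPM of Hbb-y. Macrophage markers summed to 408 against 678 CPM in YS, with 1 of 12 at 0, and primitive streak markers to 2232 against 1892 CPM in EB, with none at 0. The streak list's median of 0.31 was below that of all genes, and epiblast markers summed to 2200 against 1846 CPM in EB. The chosen EB barcodes thus carried markers of the labelled mesoderm and of epiblast. The chosen YS barcodes carried those of yolk sac endoderm, and erythroid ones at a larger sum that was below the 33431 CPM of empty droplets.

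With intact barcodes reweighted to the makeup of the chosen ones, the medians were -0.91 in EB and -0.35 in YS for ribosomal proteins, 2.73 and 2.66 for nuclear-retained lncRNAs, and 1.70 and 1.88 for chromatin regulators. The ER chaperone list had 1.44 and -0.28. Groups with at least 20 chosen barcodes were also compared singly. In all 10 EB groups with at least 20 chosen barcodes the ribosomal share was lower in them (14.8% to 22.0%, against 30.7% to 36.8% in the intact barcodes of the same groups). Malat1 was 5.52-fold to 11.1-fold higher there. In YS the ribosomal share was lower in 4 of 5 such groups and Malat1 higher in 5 of 5 (3.22-fold to 14.6-fold). The YS ribosomal share was 18.0% against 29.1% in the Prtn3 and Mpo group and 18.8% against 27.3% in the Smoc2 and Upk3b group. The gap was smaller in the globin group (21.6% against 24.5%) and the Lyve1 and Cldn5 group (20.9% against 23.6%). The exception for the ribosomal share was the Ttr and Apoa1 group, at 19.7% in chosen against 18.8% in intact barcodes. That group took 45.7% of all chosen YS barcodes. Its chosen barcodes had a median of 78.4% mt- and 346 nuclear-gene UMIs. Without that group the correlation of the libraries was higher, at an r of 0.627. In bulk sums of this kind, fewer cells of a type and less RNA per cell cannot be told apart.

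The label of damaged cells rests on the UMI total and the mitochondrial share, which the rule fixed. Among the nuclear-gene transcripts, nuclear-retained lncRNAs were at a higher share and ribosomal protein messages at a lower one than in intact barcodes, in both libraries. Intact barcodes at 5 to 10% mt- in YS (60 barcodes) had a ribosomal share of 18.0%, below that of the chosen barcodes (18.8%), and 5043 CPM of Malat1, between the intact and the chosen level. Extraembryonic endoderm markers made 2.67% of their nuclear-gene UMIs, against 0.106% at 0 to 5% mt-. Intact barcodes of the Ttr and Apoa1 group had a ribosomal share of 18.8%, and the part of cell makeup was not tested. In EB the intact barcodes at 5 to 10% mt- (148 barcodes) had 32.5%, near the intact level, and 4518 CPM. The deeper 140 EB and 104 YS barcodes from 1000 UMIs to the limit with at most 10% mt- had list medians for ribosomal proteins of -0.23 and -0.22, against -0.93 and -0.50 in the chosen ones. For nuclear-retained lncRNAs they had 1.64 and 1.05, against 2.73 and 2.94. Their cell makeup differed too: in YS 0.96% of them went to the Ttr and Apoa1 group, against 45.7% of the chosen barcodes. Membrane integrity was not measured in these libraries. Whether RNA was lost from these cells, and by which event, was not tested.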

How the data were processed

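The data are 2 droplet libraries (1 of EB, 1 of YS), for which the authors deposited UMI counts per gene and barcode, not filtered to cells (737280 barcodes and 33456 genes each; 73915225 UMIs in EB and 30294678 in YS). Per the submitters' processing notes the build was mm10; which aligner and annotation served is not given in the sources used here. Members, gene lists and tests were chosen with earlier results of these data known.

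The UMI limit is 10% of the 99th percentile of the 3000 largest barcodes. Counts were summed over the barcodes of each group and library, divided by the nuclear-gene total, and compared for genes whose summed UMIs over both groups reached 30. A gene at 0 was given a bound against 3 UMIs. The filter passes genes on their sum, so a gene high in 1 group only also passes. Intervals are exact (Poisson for CPM, Clopper-Pearson for shares, conditional binomial for ratios; 95%) and cover counting error only. Empty droplets are the barcodes ranked after 10000 up to 50000. Groups of intact barcodes come from k-means (12 groups, 2000 variable genes, 30 principal components), and chosen barcodes were assigned by multinomial likelihood. Transcript lengths, coordinates and coding sequences come from GENCODE M21 (32739 genes matched). No doublet caller was run; an alternative leaves out the 5% of intact barcodes with most UMIs.

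The text names the 15 genes of highest and of lowest ratio, ranked by the weaker library, with at least 100 CPM in the higher group of both, the 2 highest and 2 lowest of each list, a fixed set of reference genes, and a few picked after their values were seen, said so beside them; of these it prints a selection. Alternatives concern the mitochondrial and UMI limits, gene filters, normalization, weighting of barcodes, free RNA, red cells, doublets and makeup. The scripts were tested on simulated data. Python 3.11.15, numpy 2.4.6, scipy 1.17.1, pandas 2.3.3, scikit-learn 1.9.0 and matplotlib 3.10.9 were used.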

Additional observations from a re-analysis of the deposited data

Results flagged for a closer look

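For 3 results the libraries went opposite ways, and none of these differences was tested. The ER chaperone list had a median 0.66 above that of all genes in EB and -0.52 relative to it in YS, on the log2 scale. The definitive endoderm list had -0.66 in EB and 1.18 in YS relative to all genes, and 4 of its 7 measured YS genes were higher and 1 lower. With intact barcodes reweighted to the makeup of the chosen ones, its YS median was -0.19 against 0.38 for all genes, so the libraries no longer went opposite ways. Atf3, an immediate early factor, had a log2 ratio of -1.84 in EB and 1.05 in YS, with 2 UMIs in the chosen EB barcodes and 10 in the chosen YS barcodes.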

How the results depend on the processing

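Of the recomputed summary values, 88 stayed within the tolerance (1.5-fold for counts) and 40 did not, which are given here. Some of the 88 could not change. Leaving out the Apob-rich group acts on YS only, the globin filter left the EB counts as they were, and centring cannot alter r or rho. The counts for lists and single genes below also include EB values that could not change. The alternatives with 10 expected UMIs, without the Apob-rich group and with 20 to 50% mt- were added after seeing the data. Centred on the median gene, 2215 genes were higher and 2241 lower in EB, 2577 and 2035 in YS, and 976 and 771 in both. With 10 expected UMIs these were 3012 and 176, 377 and 280, and 223 and 13, and rho was 0.498. Averaged over barcodes, YS had 2744 higher and 1372 lower and both had 1518 and 53, with r 0.292 and rho 0.333. Without ribosomal protein genes in the total, 677 were lower in EB and 93 in both, and with empty droplets subtracted 519 and 54. Genes lower in both were 49 from 2000 UMIs up, 43 without the Apob-rich group and 55 at 20 to 50% mt-. The r and rho of the libraries were 0.472 and 0.495 over 30% mt-, 0.514 and 0.542 without barcodes over 10% globin, 0.627 and 0.644 without the Apob-rich group, 0.608 and 0.628 at 20 to 50% mt-, 0.570 and 0.586 from 100 UMIs, and r was 0.518 from 10 UMIs. Genes per thinned barcode in chosen relative to intact barcodes were 112% at 300 and 126% at 1000 UMIs in EB (118% at 500), and 111% at 1000 in YS (104.7% at 500). Reversed, in YS and on the log2 scale, were definitive endoderm (-0.19), extraembryonic endoderm (-0.59), Rbp4 (-0.67), Amn (-0.56) and Lrp2 (-0.37) with intact barcodes reweighted, erythroid (3.50), Hbb-y (4.23), Hba-x (4.24) and Car2 (0.12) without barcodes over 10% globin, and epiblast (-0.15) and germ cell (-0.36) with 10 expected UMIs. The globin filter and the reweighting drew on some of these same genes, and the cause was not tested. Among single genes 1812 of their recomputed values stayed within the tolerance, 612 moved and 6 reversed; for lists these were 1235, 180 and 5. In YS the 276863 nuclear-gene UMIs of the chosen barcodes limit single genes of low level. No paired analysis was possible because each group has 1 library.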
